A study of Mus musculus with 15 samples.

Results

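The genes described here encode the nuclear subunits of the oxidative phosphorylation complexes. They were taken by symbol: names of the Ndufa, Ndufb, Ndufc, Ndufs and Ndufv series with a number for complex I, Sdha to Sdhd for complex II, Uqcr genes and Cyc1 for complex III, Cox4 to Cox8 subunits for complex IV, and Atp5 genes for complex V. A gene counted if a probe row of the array named it and no other gene, and where several rows did, the row with the highest mean over 15 arrays was used. This gave 82 genes of the 19938 measured, with 35 in complex I, 4 in complex II, 9 in complex III, 17 in complex IV and 17 in complex V. Ndufa4, now assigned to complex IV, and its paralogue Ndufa4l2 are counted in complex I by their names. Cox7c and Ndufb4 shared their rows with another symbol, and Ndufb1 and Ndufb4c were named by no row, so these genes were not analysed here.

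Oxidative phosphorylation takes place in the inner mitochondrial membrane. Complex I accepts electrons from NADH and complex II from succinate, and both pass them through coenzyme Q to complex III, then through cytochrome c to complex IV, which reduces oxygen. Complexes I, III and IV pump protons across the membrane, and complex V, the ATP synthase, uses the return flow of protons to make ATP. All complexes but II are built from subunits of both genomes, and the mitochondrially encoded subunits were not analysed here. In heart tissue the complexes are abundant, and several complex IV subunits have a heart and skeletal muscle isoform beside a widely expressed one.

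The samples were cultured cardiac colony-forming unit fibroblasts (cCFU-F), stromal cells from the hearts of C57BL/6 mice. According to the labels the mice were male and 12 weeks old, and the cells were sorted as SCA1+PDGFRα+CD31-. There were 5 groups with 3 arrays each. One line consisted of small colonies kept in PDGF-AB (50 ng/ml), a dimeric growth factor whose receptor these cells carry, at passage 15 and at passage 5. Large colonies without treatment were measured at passage 15 and at passage 5, and small colonies without treatment at passage 5. Since the late passage of small colonies exists here with PDGF-AB only, size and treatment cannot be told apart where treated small colonies are set against large ones. The treatment protocol also names the inhibitor AG1296, with which no sample was labelled.

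Levels are log2 intensities on Affymetrix whole-transcript arrays, and a change is a difference of 2 group means on that scale, so that 1 is a doubling. A gene was called when its adjusted p from limma, over all 19938 genes and 2-sided, was below 0.05, and "rose" and "fell" are used for called genes only. Array medians lay between 5.59 and 5.72, and arrays correlated across genes at 0.997 to 0.998 within groups and 0.958 to 0.991 between them (Pearson). Whether a group's 3 arrays stem from different cultures or mice is not given, so the p-values cover array-to-array spread, part or all of which may be technical. Averaged over the 15 arrays, all 9 fibroblast markers tested lay at or above the median level of genes (6.02), against 2 of 11 cardiomyocyte, 2 of 7 skeletal muscle, 0 of 7 endothelial, 1 of 7 leukocyte and 0 of 5 brown adipocyte markers. The lowest fibroblast marker value was 6.45 in large colonies at passage 5 and 8.02 at passage 15. It was 4.99 in untreated small colonies, and 5.07 and 5.43 in treated ones at passages 5 and 15. Xist was at 8.93 to 10.88 and 4 Y-linked genes were at 2.24 to 3.40, which goes against the label of male cells.

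Most of the 82 genes were well expressed and moved little. The level averaged over the 15 arrays ran from 3.70 to 12.51, and 75 genes lay at or above 6.02, while Ndufa4l2, Ndufb2, Cox6b2, Cox7a1, Cox7b2, Cox8b and Cox8c lay below it. The SD within a group averaged 0.0759 over these genes. In the 6 comparisons of a pair of groups no change was larger than 1.10 in size, and Ndufa11 was the 1 gene with a change past 1, in treated small against large colonies at passage 15. On its other probe row that change was -0.52, so the size past 1 rests on 1 row. In bulk RNA, a smaller share of cells with a transcript and less of it per cell cannot be told apart.

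**Figure D1:**
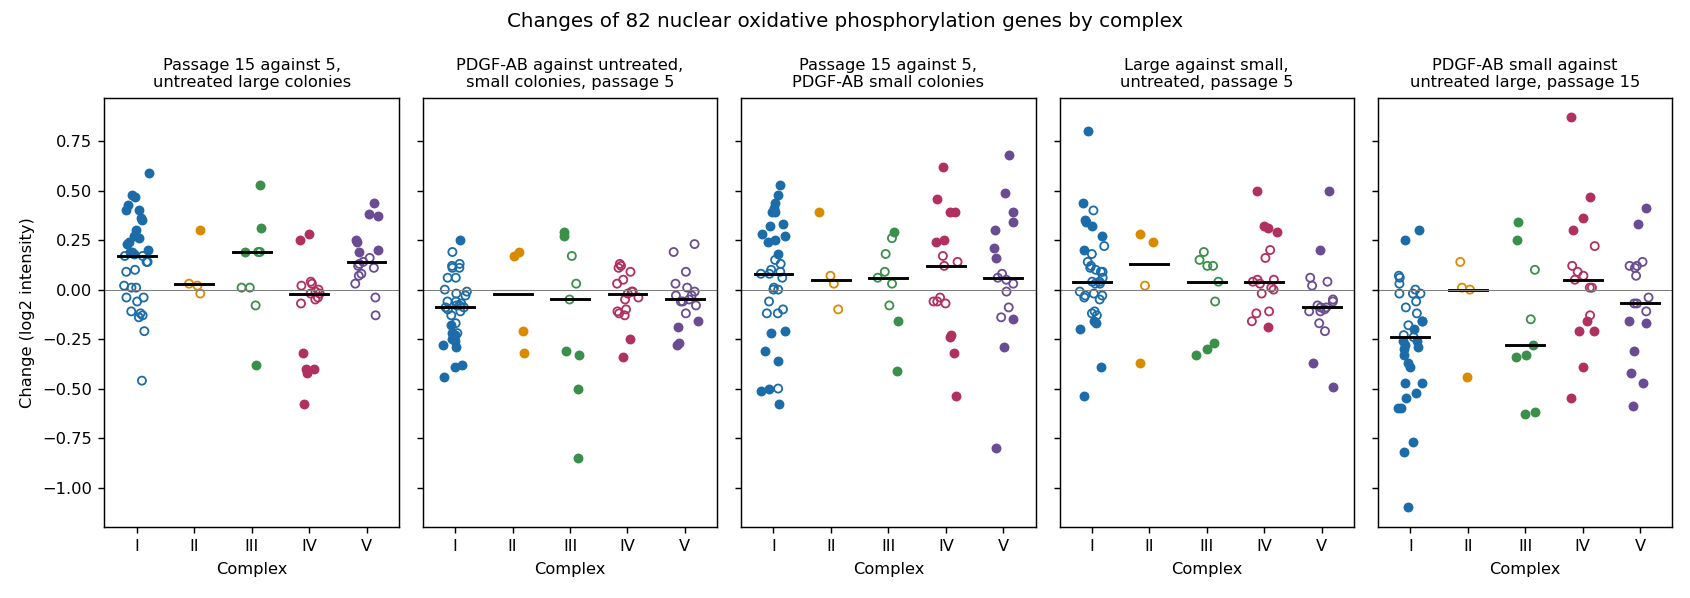
Change in log2 intensity (vertical axis) of each of 82 genes in 5 comparisons, by complex. Filled points were called by limma at an adjusted p below 0.05, open points were not, and black lines are medians. Complex I has its median at 0.17 in the left panel and at -0.24 in the right panel.

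With passage in untreated large colonies, many subunits of complexes I and V rose and none of theirs fell. Of the 82 genes 30 rose (36.6%) and 6 fell (7.32%), with a median change of 0.11. Over all genes tested 17.4% rose and 18.7% fell, with a median of -0.04, and among genes at or above the median level 28.8% rose and 28% fell. The 75 members at or above that level rose in 40% and fell in 5.33% of cases. In complex I 17 of 35 rose and 0 fell (median 0.17), in complex V 7 of 17 rose and 0 fell (0.14), and in complex III 3 of 9 rose and 1 fell (0.19). In complex II 1 of 4 rose and 0 fell (0.03). In complex IV 2 of 17 rose and 5 fell (median -0.02), and its share of falls, 29.4%, is near the 28% of genes at or above the median level. Groups did not overlap for 37 members with a higher and 7 with a lower mean, against 20.2% and 24.3% of all genes, and all 36 called members were among them. The mean level of the 33 complex I genes at or above 6.02 was 9.40, 9.38 and 9.34 in the passage 15 arrays and 9.24, 9.23 and 9.17 in the passage 5 arrays, so every passage 15 array lay higher.

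**Figure D2:**
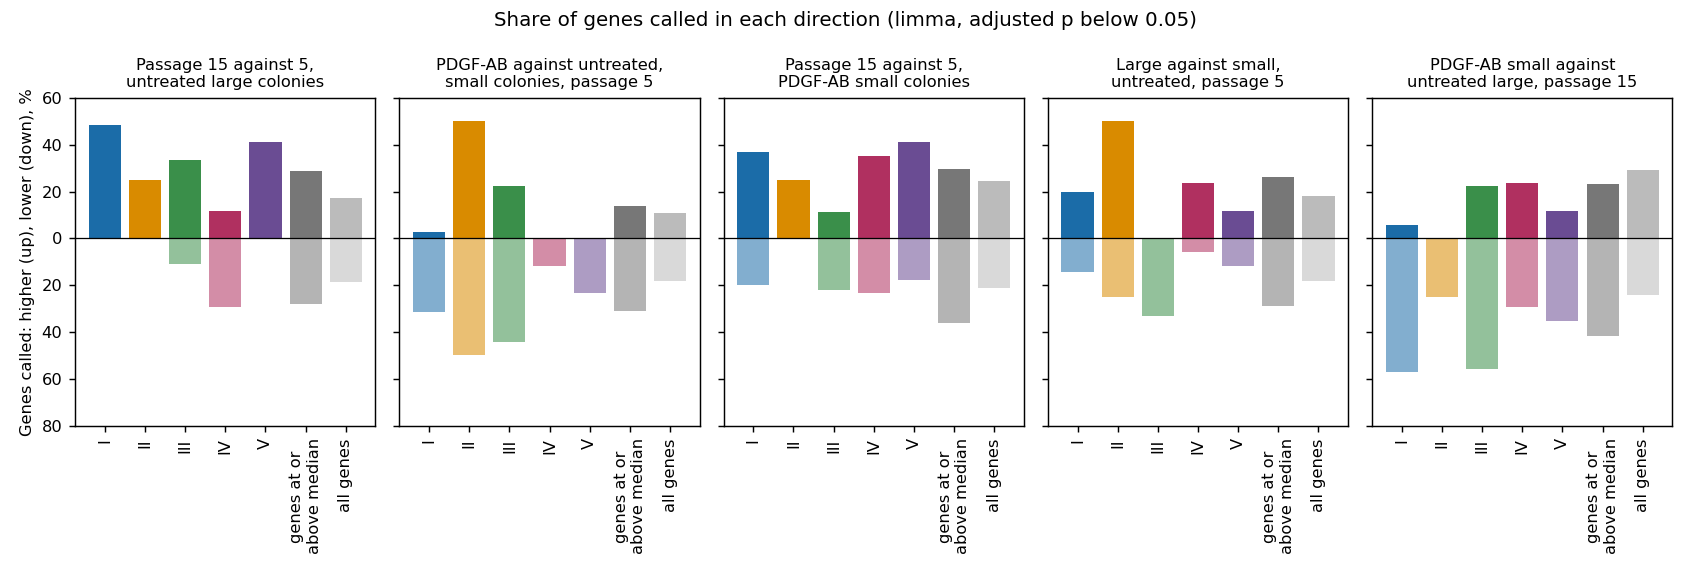
Percent of genes called higher (upward bars) or lower (downward, paler bars) in 5 comparisons, for complexes I to V, for genes of at least median level (9969) and for all 19938 genes. With passage in large colonies complex I has 48.6% higher and 0% lower, and complex IV has 11.8% higher and 29.4% lower.

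The largest rise in complex I was that of Ndufb8, an accessory subunit of the membrane arm. Ndufb8 measured 8.96, 8.81 and 8.87 in large colonies at passage 15 and 8.31, 8.32 and 8.25 at passage 5. The groups did not overlap, and the change of 0.59 (SE 0.074, adjusted p = 7.3e-06) is 1.5-fold in intensity. Ndufa8 and Ndufb9, 2 further accessory subunits, rose by 0.47 and 0.48. Ndufb9 stood at 10.70, 10.71 and 10.60 at passage 15, against 10.15, 10.23 and 10.21 at passage 5, with an adjusted p of 1.9e-06. Several core subunits, the set shared with bacterial complex I, rose as well. Ndufv1, which holds the flavin that oxidises NADH, was at 9.36, 9.33 and 9.28 at passage 15 and 9.01, 8.96 and 8.94 at passage 5, a change of 0.36 (SE 0.05, adjusted p = 2.2e-05). Ndufs8 (0.40), Ndufs3 (0.30) and Ndufs7 (0.18), core subunits of the arm that leads to coenzyme Q, rose too. Ndufs1, the largest core subunit of the peripheral arm, was not called, with a change of -0.14 (SE 0.059, adjusted p = 0.0754). Ndufs6 had the lowest change of complex I, at -0.46, but its arrays were spread over 7.88, 8.45 and 8.02 at passage 15 and 8.74, 8.91 and 8.10 at passage 5, and it was not called (adjusted p = 0.132).

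Complex II changed in its membrane anchor Sdhd alone among its 4 subunits. Sdhd was at 9.16, 8.94 and 8.96 at passage 15 and at 8.70, 8.79 and 8.66 at passage 5, a rise of 0.30 (SE 0.076, adjusted p = 0.00483). The flavoprotein Sdha changed by 0.02, the iron-sulfur subunit Sdhb by 0.03 and the second anchor Sdhc by -0.02, and none of these was called.

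In complex III the core protein Uqcrc1, a structural subunit on the matrix side, had the largest rise. Uqcrc1 measured 10.23, 10.31 and 10.22 at passage 15 and 9.67, 9.91 and 9.57 at passage 5, and the groups did not overlap (0.53, SE 0.078, adjusted p = 3.6e-05). Uqcrh, the hinge protein that helps cytochrome c dock, rose by 0.31. Cyc1, the cytochrome c1 of the complex, rose by 0.19 (SE 0.071, adjusted p = 0.0491), and 13 alternative settings ended that call. The small subunit Uqcrb fell to 11.01, 11.19 and 11.08 at passage 15, against 11.60, 11.36 and 11.46 at passage 5 (-0.38, SE 0.096, adjusted p = 0.00463). Its 2 other probe rows gave changes of -0.42 and -0.37. The Rieske iron-sulfur protein Uqcrfs1 had a change of 0.19 (SE 0.079, adjusted p = 0.0688), short of the threshold.

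In complex IV the 2 genes that rose were Cox5a and Cox5b. Cox5a, a subunit on the matrix side, was at 9.42, 9.30 and 9.48 at passage 15 and 9.19, 9.08 and 9.11 at passage 5 (0.28, SE 0.058, adjusted p = 0.00114). Cox5b, a zinc-binding subunit, rose by 0.25 (SE 0.056, adjusted p = 0.00175). The 5 that fell all belong to isoform pairs, and 4 of them are the form known from muscle, lung or testis. Cox6a2, the heart and skeletal muscle form of subunit VIa, was at 6.16, 6.00 and 6.31 at passage 15 and 6.56, 6.81 and 6.83 at passage 5, a change of -0.58 (SE 0.084, adjusted p = 3.2e-05). Cox7a1, the heart and skeletal muscle form of subunit VIIa, was at 4.97, 5.14 and 5.11 at passage 15 and 5.50, 5.54 and 5.45 at passage 5 (-0.42, SE 0.058, adjusted p = 1.7e-05). These Cox7a1 levels lie below the median of genes, where background takes a larger part of the intensity. Cox4i2, the form of subunit IV known from lung, changed by -0.40, and Cox6b2, the testis form of subunit VIb, by -0.32. The fifth was Cox6a1, the widely expressed form of VIa, at 10.44, 10.43 and 10.18 at passage 15 and 10.84, 10.68 and 10.75 at passage 5 (-0.40, SE 0.079, adjusted p = 6.0e-04). The widely expressed forms Cox4i1 (-0.04), Cox6b1 (-0.00), Cox7a2 (0.03), Cox7b (-0.07) and Cox8a (-0.01) were not called, and neither were the muscle form Cox8b (0.04) and the testis forms Cox8c (-0.02) and Cox7b2 (-0.05). Of the 11 cardiomyocyte markers 0 rose and 1, Tnnt2, fell in the same comparison, and the log2 of their summed intensity was 9.15 in all passage 15 arrays and 9.33 to 9.45 in the passage 5 arrays. Their part in the fall of the muscle isoforms was not tested.

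Complex V rose in the membrane ring, the head and the stalk. The ring protein, subunit c, is encoded by 3 genes, and all 3 rose: Atp5g3 by 0.44, Atp5g1 by 0.38 and Atp5g2 by 0.37. Atp5g3 stood at 10.73, 10.74 and 10.64 at passage 15 and 10.17, 10.38 and 10.25 at passage 5, with an adjusted p of 2.2e-05. Atp5a1, the alpha subunit of the catalytic head, rose by 0.19 (SE 0.05, adjusted p = 0.00669), whereas the beta subunit Atp5b, with a change of -0.04 (SE 0.05, adjusted p = 0.56), did not. Atp5o, which links head and outer stalk, rose by 0.24, Atp5d of the central stalk by 0.20 and the membrane subunit Atp5k by 0.25.

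The start regions of the gene with the largest called rise in each complex are shown because these genes lead the rises of their complexes. Each window holds 250 bases before and 50 bases after a RefSeq start (GRCm38.p6), read on the gene's own strand, and capitals mark matches on either strand to 6 motifs of factors known from studies of mitochondrial genes. The window of Ndufb8 lies at chr19:44555393-44555692 (minus strand), of Sdhd at chr9:50603800-50604099 (minus), of Uqcrc1 at chr9:108936398-108936697 (plus), of Cox5a at chr9:57520982-57521281 (plus) and of Atp5g3 at chr2:73911277-73911576 (minus). Those of Cox5a and Atp5g3 lie inside the gene bounds (chr9:57517328-57532427 and chr2:73908447-73912464), so they do not hold the gene's outermost start.
Ndufb8: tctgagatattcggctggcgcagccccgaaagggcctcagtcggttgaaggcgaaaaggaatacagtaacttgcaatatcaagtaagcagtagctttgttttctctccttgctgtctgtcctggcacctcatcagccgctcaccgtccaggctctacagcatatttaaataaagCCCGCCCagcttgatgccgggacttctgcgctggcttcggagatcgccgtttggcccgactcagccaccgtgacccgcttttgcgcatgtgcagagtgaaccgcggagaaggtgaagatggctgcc
Sdhd: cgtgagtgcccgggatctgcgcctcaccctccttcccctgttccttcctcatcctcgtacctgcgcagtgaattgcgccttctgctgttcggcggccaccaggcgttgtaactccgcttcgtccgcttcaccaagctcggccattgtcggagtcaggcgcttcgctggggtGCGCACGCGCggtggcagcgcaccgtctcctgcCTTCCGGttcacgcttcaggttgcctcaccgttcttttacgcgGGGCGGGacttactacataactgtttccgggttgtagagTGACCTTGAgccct
Uqcrc1: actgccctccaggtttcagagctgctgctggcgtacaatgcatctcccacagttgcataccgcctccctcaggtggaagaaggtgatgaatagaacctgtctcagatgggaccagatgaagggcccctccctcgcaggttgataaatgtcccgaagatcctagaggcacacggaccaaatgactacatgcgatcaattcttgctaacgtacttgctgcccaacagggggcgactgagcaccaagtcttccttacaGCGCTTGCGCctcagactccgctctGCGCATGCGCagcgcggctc
Cox5a: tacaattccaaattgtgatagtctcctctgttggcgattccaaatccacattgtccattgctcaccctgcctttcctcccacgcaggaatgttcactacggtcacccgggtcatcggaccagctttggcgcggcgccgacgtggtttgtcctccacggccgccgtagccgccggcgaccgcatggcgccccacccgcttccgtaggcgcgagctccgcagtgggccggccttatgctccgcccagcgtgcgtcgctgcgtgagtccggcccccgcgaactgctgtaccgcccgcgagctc
Atp5g3: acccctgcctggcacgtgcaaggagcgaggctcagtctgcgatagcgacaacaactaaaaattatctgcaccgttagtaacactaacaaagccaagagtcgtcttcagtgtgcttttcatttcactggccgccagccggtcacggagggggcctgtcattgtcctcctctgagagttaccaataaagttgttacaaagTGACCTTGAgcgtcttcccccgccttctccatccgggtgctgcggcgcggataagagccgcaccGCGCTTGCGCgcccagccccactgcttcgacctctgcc
The NRF1 motif, GCGC and TGCGC with any 1 base between, occurs in the windows of Sdhd, Uqcrc1, where there are 2 matches, and Atp5g3. The ERR motif TNAAGGTCA occurs in those of Sdhd and Atp5g3, the ETS motif CCGGAAG, bound by GABPA, in that of Sdhd, and the SP1 motif GGGCGGG in those of Ndufb8 and Sdhd, while Cox5a holds none of the 6. A window was given for 66 of the 82 genes, and 5 genes had several windows. Among the 66, 24.2% held the NRF1 motif, against 7.85% of the 15614 tested genes with a window and 12.4% of those at or above the median level. The ETS motif was in 25.8% of members, against 13.6% and 21%, and the YY1 motif AAGATGGCG in 10.6%, against 2.29% and 3.84%. The ERR motif was in 3.03%, against 1.17% and 0.805%, the CRE motif TGACGTCA in 6.06%, against 2.72% and 3.69%, and the SP1 motif in 34.8%, against 39.7% and 55%. These shares describe letters in a fixed window and not binding.

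**Figure D3:**
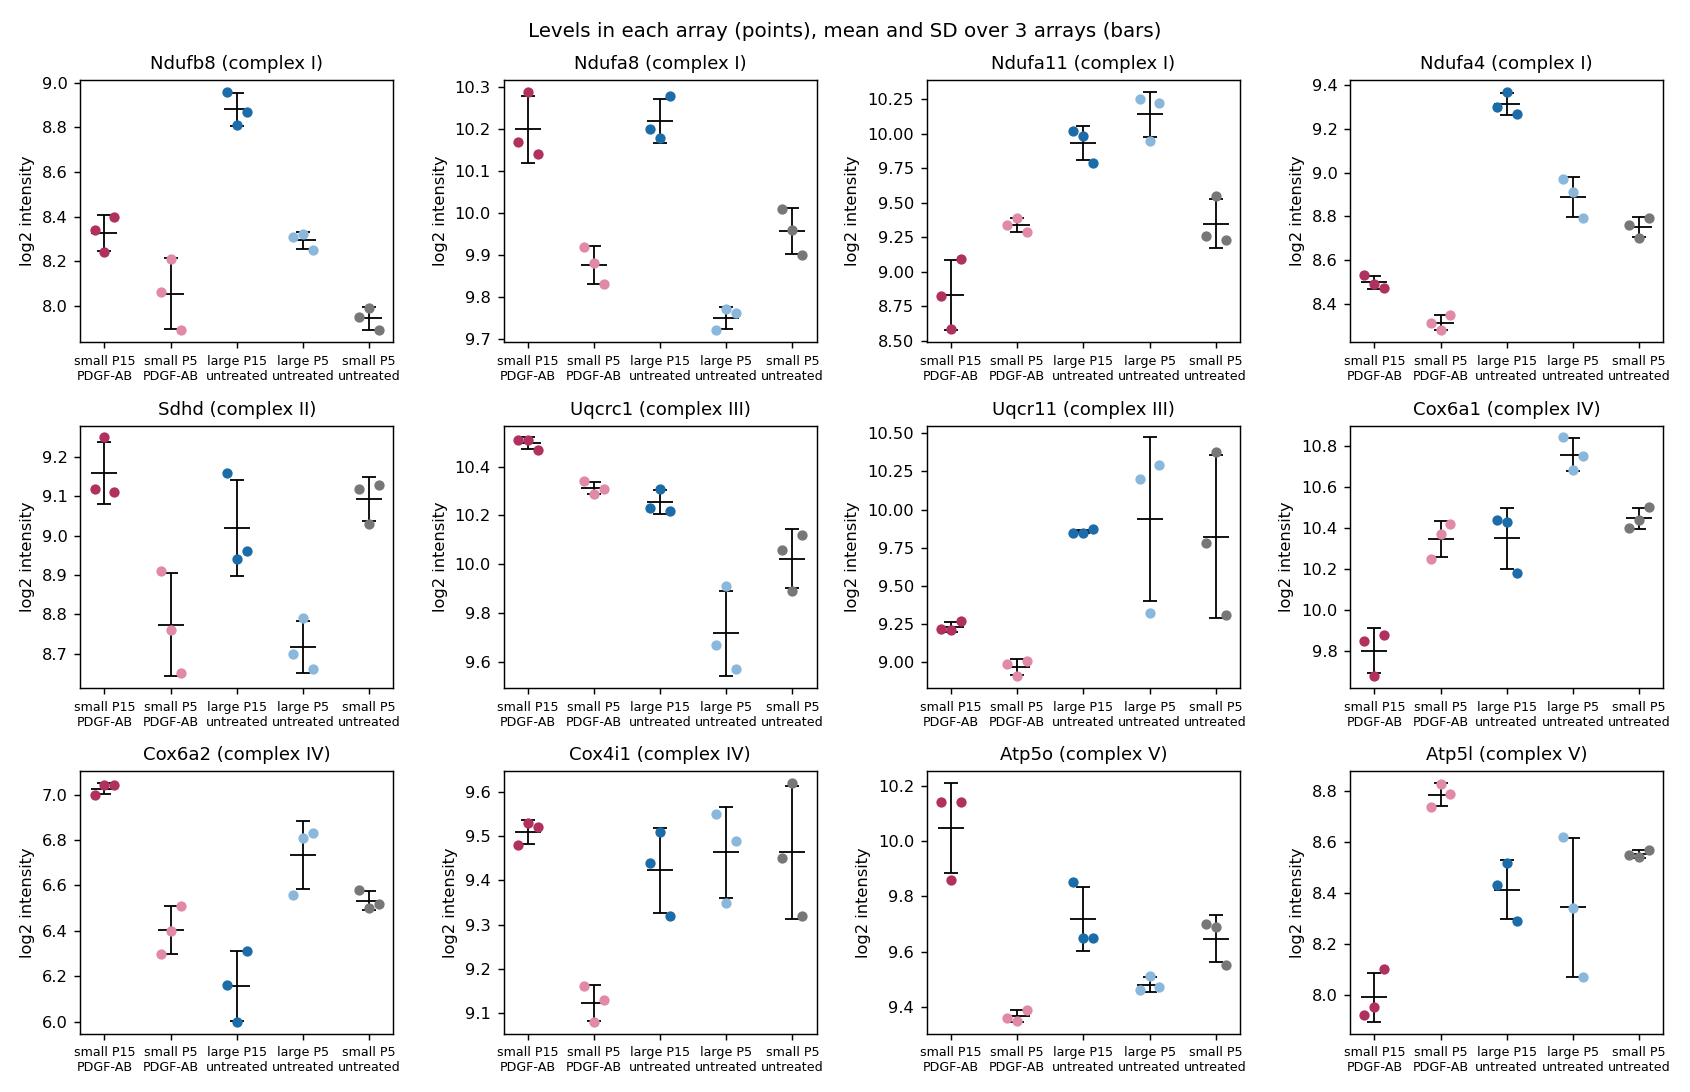
Log2 intensity of 12 genes in every array (points), with mean and SD (bars, n = 3), for small colonies with PDGF-AB at passages 15 and 5, untreated large colonies at passages 15 and 5, and untreated small colonies at passage 5. Ndufb8 and Ndufa4 are highest in large colonies at passage 15, Cox6a2 and Atp5o in treated small colonies at passage 15, and Uqcr11 is spread widely in both untreated passage 5 groups.

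Passage in PDGF-AB treated small colonies was compared between arrays that the large colony comparison does not use. More members rose than fell, 28 (34.1%) against 16 (19.5%), with a median of 0.07. Over all genes 24.6% rose and 21.4% fell (median 0.05), and among genes at or above the median level 29.8% rose and 36% fell, against 36% and 21.3% of the members at that level. Complex I had 13 risen and 7 fallen genes, complex II 1 and 0, complex III 1 and 2, complex IV 6 and 4, and complex V 7 and 3. Groups did not overlap for 36 members with a higher and 20 with a lower mean, against 30.5% and 24.5% of all genes, and all 44 called members were among them.

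The largest rise was in Atp5o, the stalk subunit of complex V, with 10.14, 9.86 and 10.14 in treated small colonies at passage 15 and 9.36, 9.35 and 9.39 at passage 5 (0.68, SE 0.077, adjusted p = 1.6e-06). Within complex V Atp5a1 followed with 0.49 (SE 0.05, adjusted p = 4.2e-07), then Atp5c1 (0.39), Atp5g3 (0.34) and Atp5g1 (0.30). In complex I Ndufa9, an accessory subunit near the coenzyme Q site, was at 9.75, 9.79 and 9.74 at passage 15 and 9.28, 9.27 and 9.15 at passage 5 (0.53, SE 0.067, adjusted p = 5.3e-06). The core subunits Ndufv1 (0.48), Ndufs8 (0.44) and Ndufs3 (0.39) rose here as they did in large colonies. In complex IV Cox5a rose by 0.46, Cox4i1 by 0.39 and Cox6a2 by 0.62 (SE 0.084, adjusted p = 1.1e-05). In complex II Sdhd rose by 0.39, and in complex III the Rieske protein Uqcrfs1 by 0.29.

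Among the 16 that fell, Atp5l had the largest change. This subunit g of the ATP synthase membrane part was at 7.92, 7.95 and 8.10 at passage 15 and 8.74, 8.83 and 8.79 at passage 5, a change of -0.80 (SE 0.1, adjusted p = 6.5e-06). All 6 probe rows that named Atp5l gave a fall of similar size, from -0.80 to -0.94. Ndufa6, an accessory subunit of complex I, stood at 8.03, 8.00 and 7.96 at passage 15 and 8.61, 8.51 and 8.60 at passage 5 (-0.58, SE 0.092, adjusted p = 6.2e-05). Cox6a1 changed by -0.54 (SE 0.079, adjusted p = 2.6e-05), Ndufa7, an accessory subunit of the peripheral arm, by -0.50, and Uqcr10 of complex III by -0.41. Ndufa11, an accessory subunit of the membrane arm, changed by -0.51 (SE 0.12, adjusted p = 0.0019) on its main probe row and by -0.07 on its other row, so its fall here rests on 1 row.

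Set side by side, 20 members rose with passage in both lines, 1 fell in both (Cox6a1) and 2 were called in opposite directions (Cox6a2 and Ndufa6). The 20 were 12 complex I genes (Ndufa4, Ndufa5, Ndufa8, Ndufa9, Ndufa10, Ndufa12, Ndufb5, Ndufb8, Ndufs3, Ndufs7, Ndufs8 and Ndufv1), Sdhd, Cox5a, Cox5b, Atp5a1, Atp5d, Atp5g1, Atp5g3 and Atp5o. They make up 66.7% of the 30 that rose in large colonies and 71.4% of the 28 that rose in treated small colonies. Among genes at or above the median level the shares were 57.4% and 55.4%, and over all genes 56.4% and 40%. The Ndufa4 call in treated small colonies was lost with arrays centred on their medians (adjusted p = 0.147). Signs matched for 54 of 82 members (65.9%), close to the 67.2% of genes at or above the median level. Across the 82 members Pearson's r between both sets of changes was 0.34 and Spearman's rho 0.43, and across the 35 complex I genes both were 0.63. Among all 9969 genes of at least median level r was 0.53. These are descriptions over genes of the same arrays and normalization, and genes are not independent replicates. All 18 mitosis genes tested rose in both lines, with medians of 2.55 in large and 3.16 in treated small colonies, and the part of cell division in the subunit changes was not tested.

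**Figure D4:**
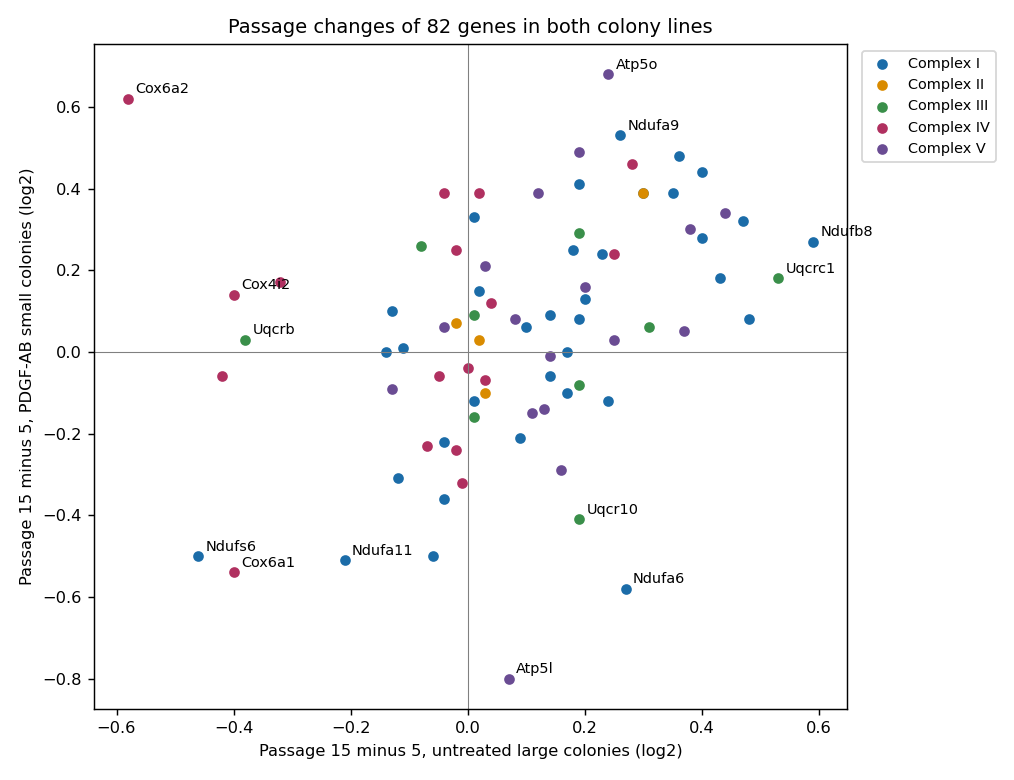
Passage change (passage 15 minus 5, log2) of 82 genes in untreated large colonies (horizontal axis) and PDGF-AB treated small colonies (vertical axis), coloured by complex. There are 20 shared called rises, while Cox6a2 lies at -0.58 and 0.62 and Atp5l at 0.07 and -0.80.

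The difference between the passage changes, treated small minus large, was tested directly, and 13 members were higher and 17 lower. Over all genes 18.6% were higher and 15.9% lower, and among genes at or above the median level 19.6% and 26.7%. With arrays centred on their medians the 13 became 7. Complex IV leaned to the higher side (6 higher, 2 lower) and complex III to the lower side (1 and 4), with 3 and 7 in complex I, 0 and 0 in complex II and 3 and 4 in complex V. Cox6a2 had the largest difference, at 1.20 (SE 0.12, adjusted p = 7.7e-07). Of the other isoforms known from lung, testis or muscle, Cox4i2 (0.54), Cox6b2 (0.49) and Cox7a1 (0.36) were higher too, while Cox8c (0.27), Cox8b (0.08) and Cox7b2 (-0.01) were not called. The widely expressed Cox4i1 was also higher (0.43). The calls of Cox6b2 and Cox7a1 were lost under cyclic loess, with adjusted p of 0.0619 and 0.0852. On the lower side were Atp5l (-0.86), Ndufa6 (-0.84) and Uqcr10 (-0.61).

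PDGF-AB against no treatment in small colonies at passage 5 gave mostly falls. The treated arrays here are also the passage 5 arrays of passage in treated small colonies, so the changes of both comparisons are not independent. Of the 82 members 5 rose (6.1%) and 23 fell (28%), with a median of -0.06. Over all genes 10.7% rose and 18.2% fell (median 0.02), and among genes at or above the median level 13.8% rose and 31% fell (median -0.07), against 6.67% and 29.3% of the members at that level. The share of falls among members is near that of genes at this level. Groups did not overlap for 10 members with a higher and 36 with a lower mean, against 18.7% and 24.3% of all genes. Complex I had 1 risen and 11 fallen genes, complex II 2 and 2, complex III 2 and 4, complex IV 0 and 2, and complex V 0 and 4.

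Complex III held the extremes in both directions. Uqcr11, a small accessory subunit, was at 8.99, 8.91 and 9.01 with PDGF-AB and at 9.78, 10.38 and 9.31 without it. The treated arrays were tight and the untreated ones spread over more than 1 unit, and the change of -0.85 (SE 0.23, adjusted p = 0.00882) was no longer called without untreated replicate 2 (adjusted p = 0.0549). Its other probe row gave -0.83. Uqcrb was at 10.64, 10.69 and 11.01 with PDGF-AB and 11.16, 11.27 and 11.41 without (-0.50, SE 0.096, adjusted p = 8.7e-04), and its 2 other rows gave -0.51 and -0.49. Cyc1 (-0.33) and Uqcrfs1 (-0.31), which carry the electrons through the complex, also fell. Uqcrc1 instead rose, at 10.34, 10.29 and 10.31 with PDGF-AB and 10.06, 9.89 and 10.12 without (0.29, SE 0.078, adjusted p = 0.00979, or adjusted p = 0.0616 without untreated replicate 2), and Uqcrh rose by 0.27 (SE 0.06, adjusted p = 0.00321).

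Complex II moved both ways. Sdhd fell (-0.32, SE 0.076, adjusted p = 0.00435) and Sdha fell (-0.21, SE 0.06, adjusted p = 0.0132), while Sdhc rose (0.19, SE 0.054, adjusted p = 0.012) and Sdhb rose (0.17, SE 0.055, adjusted p = 0.0301). The Sdha call was lost without untreated replicate 1 (adjusted p = 0.0585) or treated replicate 3 (0.0518), the Sdhc call without untreated replicate 2 (0.0651), and the Sdhb call under 7 alternatives. In complex I Ndufa4 had the largest fall, with 8.31, 8.28 and 8.35 with PDGF-AB and 8.76, 8.70 and 8.79 without (-0.44, SE 0.058, adjusted p = 2.6e-05). Ndufa4 is named for complex I and is now assigned to complex IV. Ndufb2 changed by -0.39 (SE 0.12, adjusted p = 0.0253), a call lost without any of 3 arrays (adjusted p 0.0584 to 0.113). Ndufb7 (-0.38), Ndufa2 (-0.29) and Ndufb9 (-0.28), accessory subunits, fell too, as did the core subunits Ndufs3 (-0.25) and Ndufv1 (-0.23). Ndufa3 was the 1 complex I gene that rose (0.25, SE 0.063, adjusted p = 0.00734). In complex IV Cox4i1 was at 9.16, 9.08 and 9.13 with PDGF-AB and 9.45, 9.62 and 9.32 without (-0.34, SE 0.076, adjusted p = 0.00268), and Cox5a changed by -0.25. In complex V Atp5o (-0.28), Atp5a1 (-0.27), Atp5c1 (-0.19) and Atp5j (-0.16) fell. All 18 mitosis genes fell (median -1.12), and so did 7 of 9 fibroblast markers (median -0.39), and the part of either in the falls was not tested.

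Passage in large colonies and PDGF-AB in small colonies share no arrays. Members that rose in the first and fell in the second numbered 12, which is 40% of the 30 that rose and 52.2% of the 23 that fell. These shares were 47.9% and 44.6% among genes at or above the median level and 46.1% and 44.2% over all genes. Of the other members called in both, 0 did the reverse, 2 rose in both (Uqcrc1 and Uqcrh) and 1 fell in both (Uqcrb). Signs matched for 36.6% of members and 41% of genes at or above the median level, and r was -0.08 over members and -0.33 over those genes, given as descriptions.

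Large against small untreated colonies at passage 5 showed no lean of the whole group, with 15 members higher (18.3%) and 12 lower (14.6%) and a median of 0.03. Over all genes 18.2% were higher and 18% lower, and at or above the median level 26.2% and 29.1%, against 16% and 16% of members at that level. Groups did not overlap for 19 members with a higher and 19 with a lower mean, against 23.4% and 21.6% of all genes, and Ndufb2 and Uqcrc1 were called although their groups overlapped. Ndufa11 had the largest difference, with 10.25, 9.95 and 10.22 in large and 9.26, 9.55 and 9.23 in small colonies (0.80, SE 0.12, adjusted p = 4.0e-05, and 0.51 on its other row). Ndufa7 was higher by 0.44, Atp5md, a small membrane subunit of the ATP synthase, by 0.50, and Cox6b2 by 0.50 at a low level. Ndufa6 was lower, at 8.24, 8.30 and 8.21 in large and 8.67, 8.61 and 9.09 in small colonies (-0.54, SE 0.092, adjusted p = 1.5e-04). Atp5g2 stood at 11.19, 11.22 and 11.22 in large and 11.70, 11.71 and 11.69 in small colonies (-0.49, SE 0.047, adjusted p = 2.9e-07), and Sdhd was lower too (-0.37, SE 0.076, adjusted p = 9.0e-04). In complex III 0 were higher and 3 lower (Uqcrh, Uqcrc1 and Cyc1), in complex IV 4 and 1, in complex I 7 and 5, in complex II 2 and 1, and in complex V 2 and 2. All 18 mitosis genes were lower in large colonies, and their part in these differences was not tested.

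These differences moved with the chromosome a gene lies on. Relative to all placed genes at or above the median level, genes of chromosome 15 had a median shift of -0.32 in large against small colonies, and all 5 members there were lower in value (Ndufa6, Ndufb9, Cyc1, Cox6c and Atp5g2), 4 of them called. On chromosome 9, with a shift of -0.16, 5 of 5 were lower in value (Sdhd, Uqcrc1, Cox5a, Cox7a2 and Atp5l) and 3 were called. On chromosome 13, with a shift of 0.24, 5 of 5 were higher in value and 1 was called (Sdha). On chromosome 17, with a shift of 0.20, 4 of 6 were higher in value and 3 were called (Ndufa11, Ndufa7 and Ndufv2). Across the 82 members on 19 chromosomes Pearson's r between a gene's difference and its chromosome's shift was 0.69 and Spearman's rho 0.66, against 0.22 and 0.31 over 9878 other genes at or above the median level. Members of a chromosome share its shift, so these are descriptions, and the part of the chromosome in any call was not tested. With the shift subtracted, Cyc1 read 0.05 in place of -0.27.

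**Figure D5:**
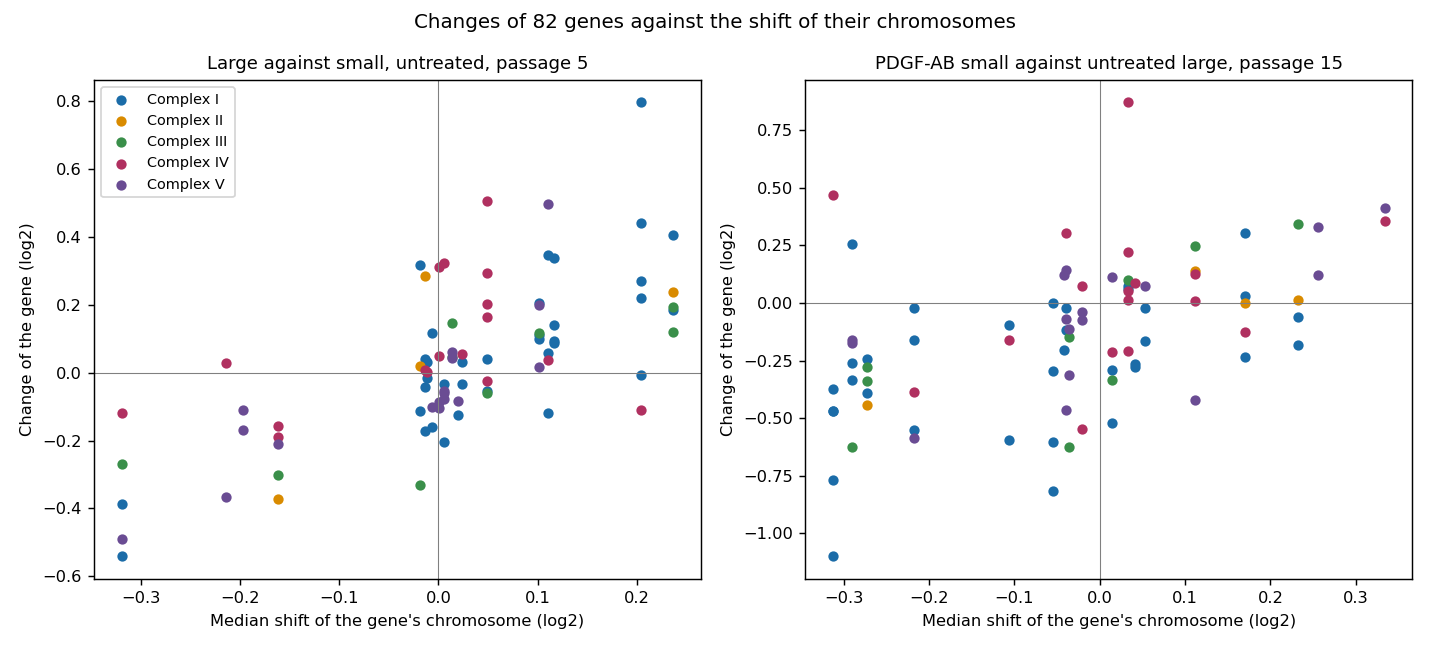
Change of each of 82 genes (vertical axis, log2) against the median shift of its chromosome (horizontal axis, log2, genes at or above the median level), for large against small colonies at passage 5 (left) and treated small against large colonies at passage 15 (right). Points rise from lower left to upper right, with Pearson's r of 0.69 and 0.50, and chromosome 15 lies at -0.32 on the left.

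At passage 15 treated small colonies were lower than large ones in 37 members (45.1%) and higher in 10 (12.2%), with a median of -0.14. Over all genes 29.2% were higher and 24.2% lower (median 0.07), while at or above the median level 23.2% were higher and 41.5% lower (median -0.09), against 10.7% and 48% of members at that level. Groups did not overlap for 16 members with a higher and 42 with a lower mean, against 34.2% and 26.5% of all genes. Complex I held most of the lower genes, with 20 of 35 lower, 2 higher and a median of -0.24. Ndufa4, among the lower genes, is counted there by its name, though it is now assigned to complex IV. Complex III had 5 of 9 lower and 2 higher (median -0.28) and complex V 6 of 17 lower and 2 higher (-0.07). Complex IV was balanced, with 4 higher and 5 lower (0.05), and complex II had Sdha lower (-0.44, SE 0.06, adjusted p = 1.4e-05) and 0 higher. With each chromosome's shift subtracted the medians were -0.16 in complex I and -0.07 in complex III, and -0.07 over all 82 members. Of the 18 mitosis genes 11 were higher and 1 lower (median 0.37), and their part was not tested.

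Ndufa11 was the furthest apart, with 8.82, 8.58 and 9.09 in treated small and 10.02, 9.98 and 9.79 in large colonies, a difference of -1.10 (SE 0.12, adjusted p = 9.0e-07), while its other probe row gave -0.52. Ndufa4 was at 8.53, 8.49 and 8.47 in treated small and 9.30, 9.37 and 9.27 in large colonies (-0.82, SE 0.058, adjusted p = 5.1e-09). Ndufa7 (-0.77), Ndufa1 (-0.60), Ndufb2 (-0.60) and Ndufb8 (-0.55) were lower as well, and Ndufa10 was higher (0.30, SE 0.055, adjusted p = 2.4e-04). In complex III Uqcr10 (-0.62, SE 0.081, adjusted p = 7.7e-06) and Uqcr11 (-0.63, SE 0.23, adjusted p = 0.0279) were lower, and Uqcrh (0.34) and Uqcrc1 (0.25) higher. The Uqcr11 call was lost without any 1 of the 6 arrays compared (adjusted p 0.0519 to 0.0687), and the Uqcrc1 call with arrays centred on their medians (0.111). Ndufa11, Ndufa7, Ndufb10, Ndufv2 and Ndufv3, 5 of the 6 members on chromosome 17, were lower, on a chromosome with a shift of -0.31, and the sixth, Cox7a2l, was higher.

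Complex IV genes were called in both directions at passage 15. Cox6a2 averaged 7.03 ± 0.027 in treated small and 6.16 ± 0.15 in large colonies (SD, n = 3 each), with every treated small array higher (0.87, SE 0.084, adjusted p = 2.7e-07 by limma), and its widely expressed partner Cox6a1 was at 9.85, 9.68 and 9.88 in treated small and 10.44, 10.43 and 10.18 in large colonies (-0.55, SE 0.079, adjusted p = 2.8e-05). Cox7a2l, described as a factor that joins complexes III and IV into larger assemblies, was higher (0.47, SE 0.077, adjusted p = 9.6e-05), and so were Cox4i2 (0.30) and the testis form Cox8c (0.36) at low levels. Such assemblies were not measured here. Cox8a (-0.39), Cox6c (-0.21), Cox6b1 (-0.21) and Cox7b (-0.16), all widely expressed, were lower. The widely expressed Cox4i1 (0.09) and Cox7a2 (means of 9.46 in treated small and 9.45 in large colonies) were not called. Neither were the muscle or testis forms Cox7a1 (5.12 and 5.07), Cox6b2 (5.03 and 5.01), Cox7b2 (3.72 and 3.64) and Cox8b (0.22, adjusted p = 0.0502 by limma). Under cyclic loess the calls of Cox4i2 (adjusted p = 0.0704), Cox6b1 (0.169) and Cox7b (0.338) were lost. Of the 11 cardiomyocyte markers 4 were higher and 0 lower in the same comparison, and the log2 of their summed intensity was 9.94 to 9.99 in treated small and 9.15 in all large colony arrays, with Tnnt2 the brightest and 9 of the 11 below the median level. Of 7 skeletal muscle markers 3 were higher and 0 lower. Endothelial markers gave 4 higher and 0 lower of 7, brown adipocyte markers 3 and 0 of 5, and leukocyte markers 2 and 3 of 7. Among genes below the median level 35.1% were higher and 6.85% lower, so the cardiomyocyte count is near that share. The part of these markers in the Cox6a2 difference was not tested. With passage in treated small colonies, where Cox6a2 rose, Tnnt2 fell (-1.30), and the summed level was 9.94 to 9.99 at passage 15 and 10.75 to 10.84 at passage 5.

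At passage 5 treated small colonies were lower than large ones in 30 members (36.6%) and higher in 8 (9.76%), where 14.8% of all genes were higher and 20.9% lower, and 22.6% and 35.1% of genes at or above the median level, against 10.7% and 36% of members at that level. The share of lower members is near that of genes at this level. Groups did not overlap for 15 members with a higher and 35 with a lower mean, against 18.8% and 25.1% of all genes, and Ndufb10 was called although its groups overlapped. Complex I had 16 lower and 2 higher, complex IV 6 and 0, complex V 4 and 3, complex III 3 and 2, and complex II 1 and 1. Uqcr11 (-0.97, SE 0.23, adjusted p = 0.00253), Ndufa11 (-0.80, SE 0.12, adjusted p = 3.8e-05), Ndufb2 (-0.73, SE 0.12, adjusted p = 1.6e-04) and Uqcrb (-0.69, SE 0.096, adjusted p = 2.2e-05) had the largest lower values. The other probe row of Ndufa11 gave -0.47. Uqcrh was at 10.06, 10.06 and 10.11 in treated small and 9.44, 9.49 and 9.51 in large colonies (0.60, SE 0.06, adjusted p = 6.1e-07), and Uqcrc1 was higher by 0.59, so that these 2 complex III subunits differed in sign from Uqcr11 and Uqcrb. Atp5l (0.44) and Atp5g2 (0.43) were higher. The comparisons of treated small with large colonies share arrays with those above, so their values are not independent of them. Large against small untreated colonies likewise shares arrays with passage in large colonies and with PDGF-AB in small colonies.

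The isoform pairs did not move together across the comparisons. In subunit IV, Cox4i1 rose with passage in treated small colonies (0.39) and fell with PDGF-AB (-0.34), where Cox4i2 changed by 0.14 and 0.09 and was not called. Both comparisons use the treated small arrays of passage 5. Cox4i1 averaged 9.12 there, 9.51 at passage 15 and 9.46 in untreated small colonies, so the opposite signs are not independent. In subunit VIa, Cox6a1 fell with passage in both lines (-0.40 in large and -0.54 in treated small colonies), while Cox6a2 fell in large (-0.58) and rose in treated small colonies (0.62). In subunit VIb, Cox6b1 had changes of -0.00, -0.04 and -0.01 with passage in large colonies, passage in treated small colonies and PDGF-AB, none of them called, and Cox6b2 was called in the first of these (-0.32). In subunit VIIa, Cox7a1 was higher in large than in small untreated colonies (0.29) and lower in treated small than in large colonies at passage 5 (-0.31), while Cox7a2 was called in no comparison. Both Cox7a1 differences use the same large colony arrays of passage 5. Cox7a2l, which stands apart as an assembly factor, rose with passage in treated small colonies (0.39, SE 0.077, adjusted p = 4.6e-04) and had a change of 0.02 in large ones. In subunits VIIb and VIII, Cox7b (-0.23) and Cox8a (-0.32) fell with passage in treated small colonies. Their partners Cox7b2 (-0.06) and Cox8b (0.12) were not called there, and Cox8c rose (0.25), a call lost under cyclic loess (adjusted p = 0.0659). Ndufa4l2, a paralogue of Ndufa4 known to be induced by low oxygen, was called only in treated small against large colonies at passage 15 (0.25, SE 0.076, adjusted p = 0.01), and that call was lost under cyclic loess (adjusted p = 0.372).

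The 10 following members were called in none of the 6 comparisons of a pair of groups: Ndufc2, Ndufs1, Ndufs5, Ndufs6, Uqcrc2, Cox7a2, Cox7b2, Cox8b, Atp5j2 and Atp5pb. Uqcrc2, the second core protein of complex III, was nearly flat, with 10.51, 10.50 and 10.62 in treated small colonies at passage 15, 10.50, 10.46 and 10.39 at passage 5, 10.45, 10.48 and 10.39 in large colonies at passage 15, 10.44, 10.43 and 10.44 at passage 5 and 10.45, 10.46 and 10.58 in untreated small colonies. Ndufs6 was spread widely within groups instead, for example 7.69, 8.06 and 8.78 in untreated small colonies.

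Genes that build or serve the complexes were counted in the same way. Beside these counts, genes at or above the median level rose in 28.8% and fell in 28% of cases with passage in large colonies, in 29.8% and 36% with passage in treated small colonies, and in 13.8% and 31% with PDGF-AB. Several of the counts are near these shares. Passage in treated small colonies and PDGF-AB share the treated passage 5 arrays, so their counts and changes, here and below, are not independent. Mitochondrial ribosomal proteins, which translate the mitochondrially encoded subunits, numbered 30 risen and 5 fallen of 77 with passage in large colonies, 36 risen and 8 fallen with passage in treated small colonies, and 2 risen and 32 fallen with PDGF-AB. Their medians were 0.15, 0.18 and -0.15. Of 14 complex I assembly factors 6 rose and 3 fell with passage in either line, and 0 rose and 6 fell with PDGF-AB. Ndufaf3 and Tmem126b, 2 such factors, fell with passage, with changes of -0.58 and -0.52 in large and of -0.94 and -0.84 in treated small colonies. Of 16 complex IV assembly factors 5 rose and 2 fell with passage in large colonies, 7 rose and 4 fell in treated small colonies, and 1 rose and 9 fell with PDGF-AB. Among these Coa7 changed by 0.48 and 0.71 with passage in large and in treated small colonies and by -1.67 with PDGF-AB (SE 0.072, adjusted p = 4.4e-11), which is larger than any change of a subunit.

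Of 17 regulators of mitochondrial gene expression 3 rose and 3 fell with passage in large colonies, 8 rose and 3 fell with passage in treated small colonies, and 0 rose and 7 fell with PDGF-AB. Tfam, which packages mitochondrial DNA and activates its transcription, changed by 0.67 (SE 0.069, adjusted p = 6.5e-07) with passage in large colonies, by 0.57 in treated small colonies and by -0.56 with PDGF-AB. Tfb1m, which methylates mitochondrial ribosomal RNA, changed by 0.46, 1.26 and -0.34 in the same comparisons. In the citric acid cycle and pyruvate dehydrogenase 6 rose and 3 fell of 16 with passage in large colonies, 7 rose and 2 fell in treated small colonies, and 0 rose and 7 fell with PDGF-AB. Suclg2, a subunit of succinyl-CoA ligase, was among the largest, with 0.75, 0.96 and -0.30. Citrate synthase, Cs, rose by 0.36 and 0.31 with passage in the 2 lines. Of 21 protein import genes 7 rose and 2 fell with passage in large colonies, 9 rose and 3 fell in treated small colonies, and 0 rose and 6 fell with PDGF-AB. In the same order, cytochrome c and coenzyme Q synthesis (13 genes) gave 1 risen and 5 fallen, 4 and 3, and 1 and 3. Assembly factors of complex II (4 genes) gave 1 and 1, 0 and 2, and 0 and 1. Those of complex III (6 genes) gave 1 and 0, 3 and 1, and 1 and 2. Those of complex V (4 genes) gave 2 and 0, 1 and 0, and 0 and 2. Adenine nucleotide carriers and uncoupling proteins (8 genes) gave 1 and 0, 2 and 0, and 0 and 1.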

How the data were processed

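RNA of 15 samples was measured on Affymetrix arrays, and the deposited table holds log2 intensities per probe row; RMA and limma are named in the submitters' processing notes, without versions. Probe rows were named through the platform annotation and updated to RefSeq symbols. Of 28853 rows, 21789 named 1 gene, 1621 several and 5443 were not listed; this gave 19938 genes. All value columns were used. Here limma 3.58.1 in R 4.3.3 was fitted over the 15 arrays with a mean per group and no block, with 2-sided moderated tests and Benjamini-Hochberg adjustment over all genes at 0.05 (residual df 10). This procedure was tested on simulated data. Every p in the text is from this limma fit unless another setting is named. A chromosome's shift is the median change of its genes at or above the median level, less that of all such genes. The members and lists were chosen with earlier results of these data known. Genes named are, per comparison, up to 4 called members with the largest rises and 4 with the largest falls whose groups did not overlap, the isoform pairs, representatives of each complex by role, and up to 3 genes of a companion list with the smallest adjusted p. Other members named were chosen after their values were seen. Alternatives were array centring, cyclic loess, a level filter, averaging of probe rows, the compared arrays alone, trend and robust moderation, array weights, a replicate block, subtraction of the chromosome's shift and leaving out each array. Same-numbered arrays were not treated as pairs, since no comparison had all 3 correlations of their deviations over 0.1. Passage in large colonies came close (0.208, 0.0984 and 0.202), and such correlations cannot exclude pairing.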

Additional observations from a re-analysis of the deposited data

Results flagged for a closer look

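The passage change differed between PDGF-AB treated small and untreated large colonies in 13 members on the higher side and 17 on the lower side, by the limma test of the difference itself. These are 15.9% and 20.7% of members, against 18.6% and 15.9% of all genes. Among genes at or above the median level the shares were 19.6% and 26.7%, against 14.7% and 22.7% of members at that level. Both member shares lie below those of genes at that level. The difference was 1.20 for Cox6a2, 0.54 for Cox4i2, 0.49 for Cox6b2 and 0.44 for Atp5o. It was -0.86 for Atp5l, -0.84 for Ndufa6, -0.61 for Uqcr10 and -0.44 for Atp5e. The Atp5e call was lost without any of 4 single arrays (adjusted p 0.0708 to 0.0827) and the Cox6b2 call under cyclic loess (adjusted p = 0.0619). Treated small and large colonies differ in both size and treatment, which cannot be told apart.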

How the results depend on the processing

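Of 322 counts over the 82 members under the alternatives 316 stayed within 1.5 times, but counts by complex moved further in 15 of 70 cases under cyclic loess, 9 with the level filter and 9 without large passage 5 replicate 3. With arrays centred on their medians, members with a higher difference of passage changes numbered 7 in place of 13. Cyclic loess gave 9 in place of 5 risen with PDGF-AB, and for treated small against large colonies 19 in place of 10 higher at passage 15 and 14 in place of 8 at passage 5. The causes were not tested. Leaving out single arrays gave 23 to 31 risen and 6 to 8 fallen with passage in large colonies, 27 to 29 and 12 to 16 with passage in treated small colonies, and 3 to 7 and 18 to 23 with PDGF-AB, where 3 came without untreated small replicate 2. It gave 14 to 18 higher and 10 to 13 lower in large against small colonies, 10 to 12 and 31 to 38 at passage 15 and 6 to 8 and 26 to 31 at passage 5 in treated small against large colonies, and 11 to 13 and 11 to 17 for the difference of passage changes, where 11 lower came without large passage 5 replicate 3. The fit with the replicate number as a block gave 31 risen and 6 fallen with passage in large colonies, 28 and 15 in treated small colonies and 6 and 22 with PDGF-AB. With that replicate block, 16 were higher and 11 lower in large against small colonies, 11 and 37 at passage 15 and 7 and 31 at passage 5 in treated small against large colonies, and 13 and 17 for the difference. Subtracting the chromosome's shift reversed 5 named changes: Sdhb with PDGF-AB (-0.03 in place of 0.17), Cyc1 in large against small colonies (0.05 in place of -0.27), Atp5b (0.13 in place of -0.16) and Ndufv1 (0.06 in place of -0.16) in treated small against large colonies at passage 15, and Sdhb there at passage 5 (-0.04 in place of 0.15). It also moved 105 other named changes by at least their standard error and 14 of 42 medians by at least the median standard error, as cyclic loess did with 10 of 42 medians. Of 246 named changes 128 were called, and 99 of these kept their call and direction under every alternative that gave them a test. The level filter gave no test to members below it (202 of 246 had one), and subtracting the chromosome's shift gives no test. Under that subtraction Cyc1 in large against small colonies, which is among the 99, changed sign. Probes that may also match near-identical gene copies were not examined, and genes of low level have little signal over background.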
